A study of Mus musculus with 20 samples.

Results

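Transcripts of 10 enzymes that make asparagine, serine, glycine, one-carbon units, proline and cysteine (Asns, Phgdh, Psat1, Psph, Shmt1, Shmt2, Mthfd2, Aldh18a1, Pycr1 and Cth) were followed in mouse primary cortical neurons deprived of oxygen and glucose. The genes were picked by name with earlier results of these same arrays known, so their differences from the controls are given below as a description, with no p-values. How many pass the limma threshold is counted once, beside the share of all probes that pass it. Of the 10 genes, 9 have a named probe, 13 probes in all, and 7 probes of 5 genes (Asns, Phgdh, Psat1, Shmt2 and Mthfd2) were detected often enough to be compared. They stand among 15785 genes named on the array, of which 7721 had a probe that passed the same filter, a detection p under 0.01 on at least 3 arrays.

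The neurons came from the cortex of Swiss albino mouse fetuses at gestation day 15 to 16 and were at day 7 of culture. Stroke was modelled by withdrawing oxygen and glucose (OGD), which kept the oxygen partial pressure below 50 mm Hg for 10 min, 5 h, 8 h, 15 h or 24 h. Each time had 3 bead arrays, and 5 control arrays came from neurons that received no agent. The labels do not say whether replicates were separate cultures, and every p-value here rests on the spread among these arrays, possibly a technical one.

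Asparagine synthetase, Asns, moves an amide nitrogen from glutamine onto aspartate. Serine is made from a glycolytic intermediate in consecutive steps by phosphoglycerate dehydrogenase (Phgdh), phosphoserine aminotransferase (Psat1) and phosphoserine phosphatase (Psph); in brain this route is known mainly from glia, which supply serine to neurons. Serine hydroxymethyltransferases of the cytosol (Shmt1) and the mitochondria (Shmt2) split serine into glycine and a folate-bound one-carbon unit, which Mthfd2 oxidises in mitochondria. Aldh18a1 and Pycr1 make proline, and Cth releases cysteine in transsulfuration. Many of these genes are known targets of ATF4, the transcription factor of the amino acid response, which binds C/EBP-ATF response elements.

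Promoters of the 3 genes whose levels moved most alike and of Phgdh, which moved the other way, are shown. Among them only Asns held a match to that element in the window searched. Mthfd2 and Shmt2 had none there, as was so for Phgdh. Each sequence is the 150 bases before the annotated start (RefSeq, GRCm38.p6), 5′ to 3′ on the gene's strand, with a match to TGATGNAA in capitals.
Asns, chr6:7693210-7693359, minus strand: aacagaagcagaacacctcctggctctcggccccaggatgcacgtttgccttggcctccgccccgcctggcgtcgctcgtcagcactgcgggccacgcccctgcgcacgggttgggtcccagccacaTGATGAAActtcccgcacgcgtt
Mthfd2, chr6:83317605-83317754, minus strand: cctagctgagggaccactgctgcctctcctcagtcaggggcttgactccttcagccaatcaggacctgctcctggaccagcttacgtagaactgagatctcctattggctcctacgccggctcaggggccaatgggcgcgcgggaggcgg
Shmt2, chr10:127522445-127522594, minus strand: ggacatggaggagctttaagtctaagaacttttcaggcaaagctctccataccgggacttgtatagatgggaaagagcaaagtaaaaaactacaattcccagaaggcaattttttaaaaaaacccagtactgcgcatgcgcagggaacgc
Phgdh, chr3:98339970-98340119, minus strand: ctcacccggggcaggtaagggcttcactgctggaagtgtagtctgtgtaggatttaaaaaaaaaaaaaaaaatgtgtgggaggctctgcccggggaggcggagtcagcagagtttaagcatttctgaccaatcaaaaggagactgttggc
The table holds 10 promoters of 9 of the 10 genes (none for Cth), each from 250 bases before to 50 bases after the start. TGATGNAA, searched on both strands, matched in 3.97% of 32851 promoters and in those of 2 of the 9 genes, Asns (23 to 16 bases before the start) and Pycr1 (103 to 96 bases before it). Its core TGATG, which lies within it, matched in 39.3% of all promoters and in Aldh18a1, Asns, Mthfd2 and Pycr1. The E-box CACGTG matched in 7.15% of all promoters and in Aldh18a1. These matches describe letters in a window, and binding was not measured.

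Several features of the arrays touch every value. Control replicate 2 lay below the other 4 controls in all 7 compared probes, so results are given with and without it. It differed from their mean by -0.15 for Phgdh and by -0.63 to -1.78 for the other probes. Of the compared probes, only Asns 7100687, Mthfd2 and Shmt2 6040010 passed the gap test described at the end. In the genes other than Phgdh, control 2 lay close to the 10 min arrays, and in some also to late arrays of its slide. For Mthfd2 it read 8.22, against 8.28 to 8.44 at 10 min and 7.92 to 8.15 at 24 h. For Psat1 probe 1570102 it read 6.37, within the 24 h range of 6.32 to 6.58. For Phgdh it read 7.61, below the 10 min arrays at 7.91 to 8.11. Whether that array carries the right label was not tested, and a wrong one would alter every difference from the 5 controls. The arrays lay on 3 slides: control 1 with the 10 min arrays, controls 4 and 5 with 5 h and 8 h, and controls 2 and 3 with 15 h and 24 h. Median intensity per array was 53.1 to 65.4, and 37% to 40.9% of probes were detected. Gene names rest on the probe profile's own identifiers, since the authors' processed tables pair the values with other identifiers. Where an identifier had the form of a gene number, 7482 of 10747 held the number of the annotated gene, among them those of Phgdh and Shmt1. No identifier of an Asns, Mthfd2, Shmt2 or Psat1 probe held its gene number, so the naming of these genes has no support from this check. Both probes of Asns correlated at r = 0.900 over the 20 arrays, and both of Psat1 at r = 0.921, as a description of arrays that share groups and slides. Levels below are background-corrected, quantile-normalized log2 intensities, comparable between arrays for 1 probe and not between probes. In such bulk samples, fewer cells of a type and less RNA per cell cannot be told apart.

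Asns was high in 4 controls and at 5 h and 8 h, and low at 10 min, 15 h and 24 h. Probe 7100687 (gene ID 27053) read 10.95, 9.62, 10.92, 10.91 and 11.01 in controls 1 to 5. It read 9.30, 9.42 and 9.61 at 10 min, then 11.23, 10.97 and 11.16 at 5 h and 10.71, 10.55 and 10.61 at 8 h. At 15 h it read 9.10, 9.25 and 9.24, and at 24 h 8.93, 9.14 and 8.86. The 10 min, 15 h and 24 h arrays all lay below every control, control 2 at 9.62 being just above the highest 10 min array at 9.61, and the 5 h and 8 h arrays lay within or beside the other controls.
The group means were 10.68 ± 0.60 in controls (SD, n = 5), 9.44 ± 0.16 at 10 min, 11.12 ± 0.13 at 5 h, 10.62 ± 0.08 at 8 h, 9.19 ± 0.08 at 15 h and 8.98 ± 0.14 at 24 h (n = 3 each). In order of level, 5 h, control and 8 h overlapped their neighbours, as did 15 h and 24 h, while 8 h lay above 10 min and 10 min above 15 h without overlap. Against the 5 controls, the log2 difference was -1.24 at 10 min, 0.44 at 5 h, -0.06 at 8 h, -1.49 at 15 h and -1.71 at 24 h, each ± 0.22 (SE). These correspond to levels 2.36-fold lower at 10 min, 2.81-fold lower at 15 h and 3.26-fold lower at 24 h. Without control 2 the differences were -1.51, 0.17, -0.32, -1.76 and -1.97, each ± 0.09. The 8 h arrays then lay wholly below the remaining 4 controls, which spanned 10.91 to 11.01. With slide as a block, the differences from the 5 controls were -1.51 ± 0.29 at 10 min, -1.07 ± 0.23 at 15 h and -1.29 ± 0.23 at 24 h. With the block and without control 2, they were -1.72 ± 0.15 at 15 h and -1.94 ± 0.15 at 24 h.
In the deposited intensities, before any normalization, the group medians stood in the same order, but control 2, at 789.6, lay within the 10 min range of 776.7 to 847.6. Intensities ran from 508.3 to 569.1 at 15 h and from 431.3 to 525.4 at 24 h, below control 2 and the highest control at 2189.6.

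**Figure D1:**
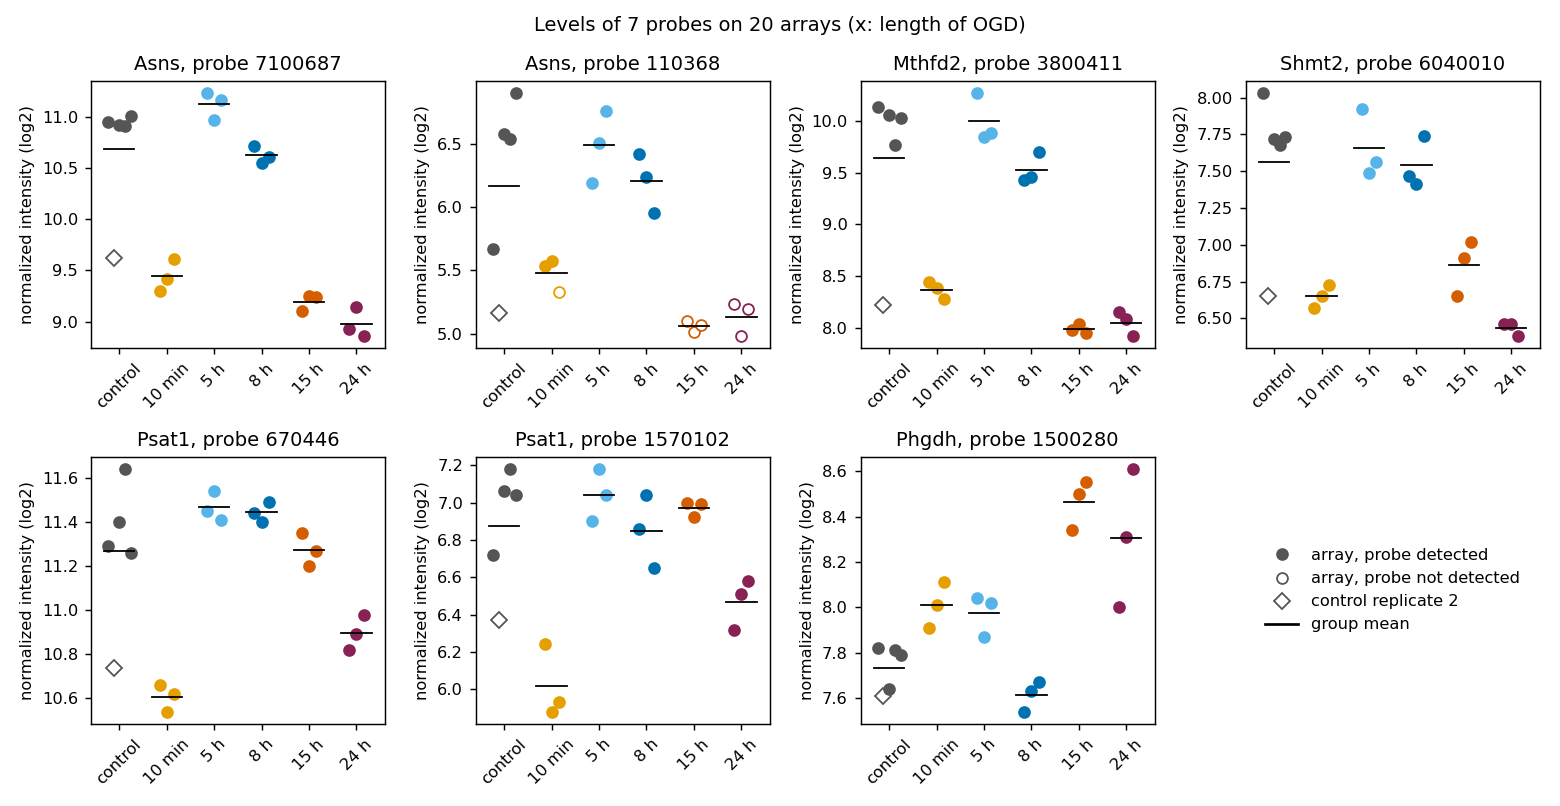
Normalized log2 intensity (vertical axes, each with its own range) of 7 probes of 5 enzymes by length of OGD (horizontal axes). Each point is 1 array, lines are group means, open circles are arrays on which the probe was not detected, and the open diamond is control replicate 2. Asns, Mthfd2 and Shmt2 are low at 10 min, 15 h and 24 h, Psat1 is low at 10 min and 24 h, and Phgdh is highest at 15 h and 24 h.

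The dimmer Asns probe, 110368, was detected on 12 of 20 arrays: 4 of 5 controls, 2 of 3 at 10 min, all 6 at 5 h and 8 h, and none at 15 h or 24 h. It read 5.67, 5.16, 6.58, 6.54 and 6.90 in the controls, and 5.53, 5.57 and 5.33 at 10 min. At 5 h it read 6.19, 6.51 and 6.76, and at 8 h 6.42, 6.24 and 5.95. Its 15 h readings (5.10, 5.01 and 5.07) and 24 h readings (5.23, 4.98 and 5.19) are not well above background, so only a bound can be given there. Taken against the lowest detected signal of each array, the level was at least 1.78-fold lower at 15 h and at least 1.66-fold lower at 24 h than in the controls (2.12-fold and 1.98-fold without control 2). Both Asns probes thus shared the same low groups, with the 10 min difference of the dim probe at -0.69 ± 0.27 (-0.95 ± 0.20 without control 2). Within the first slide, against control 1 alone, that difference was -0.19, while probe 7100687 differed by -1.51 there. At 24 h the measured difference of the dim probe was -1.04 ± 0.27, and -0.74 ± 0.27 with slide as a block. With the block and without control 2 it was -1.45 ± 0.21.

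Mthfd2, the mitochondrial methylene-folate dehydrogenase, had the pattern most like Asns among the members. Probe 3800411 read 10.14, 8.22, 10.06, 9.77 and 10.03 in the controls and 8.44, 8.38 and 8.28 at 10 min. It read 10.27, 9.85 and 9.88 at 5 h and 9.43, 9.46 and 9.70 at 8 h. At 15 h it read 7.98, 8.04 and 7.95, and at 24 h 8.15, 8.08 and 7.92. All 15 h and 24 h arrays lay below every control, and the 10 min arrays lay between control 2 and the other 4 controls. Against the controls, the log2 difference was -1.27 at 10 min, 0.36 at 5 h, -0.11 at 8 h, -1.65 at 15 h and -1.59 at 24 h, each ± 0.28 (SE), or 3.15-fold lower at 15 h. Without control 2 the differences were -1.63, 0.00, -0.47, -2.01 and -1.95, with the smaller error of ± 0.11, and the 8 h arrays no longer overlapped the controls. With slide as a block, the differences from the 5 controls were -1.77 ± 0.39 at 10 min, -1.15 ± 0.31 at 15 h and -1.09 ± 0.31 at 24 h. With the block and without control 2, they were -2.07 ± 0.17 at 15 h and -2.0 ± 0.17 at 24 h.

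Shmt2, which feeds Mthfd2 with one-carbon units, was low in the same groups. Probe 6040010 read 8.03, 6.65, 7.72, 7.68 and 7.73 in the controls, and 6.57, 6.65 and 6.73 at 10 min. It read 7.92, 7.49 and 7.56 at 5 h and 7.47, 7.41 and 7.74 at 8 h. At 15 h it read 6.65, 6.91 and 7.02, and at 24 h 6.46, 6.46 and 6.38. The 24 h arrays lay below every control, whereas control 2 overlapped the 10 min and 15 h arrays. The log2 difference from the controls was -0.91 at 10 min, 0.10 at 5 h, -0.02 at 8 h, -0.70 at 15 h and -1.13 at 24 h, each ± 0.20 (SE). Without control 2 it was -1.14, -0.13, -0.25, -0.93 and -1.35, each ± 0.12. With slide as a block in the model the 15 h difference was -0.33 ± 0.21 and the 24 h difference -0.75 ± 0.21. That block leaves controls 2 and 3 as the only controls beside the late arrays, and without control 2 the blocked differences were -0.86 ± 0.17 and -1.28 ± 0.17. The second Shmt2 probe, 1850180, was detected on 2 of 20 arrays and was not compared.

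Psat1, the aminotransferase of serine synthesis, was low at 10 min and 24 h but not at 15 h. Probe 670446 read 11.29, 10.74, 11.40, 11.64 and 11.26 in the controls, and 10.66, 10.54 and 10.62 at 10 min. It read 11.45, 11.54 and 11.41 at 5 h and 11.44, 11.40 and 11.49 at 8 h. At 15 h it read 11.35, 11.20 and 11.27, within the control range, and at 24 h 10.82, 10.89 and 10.98. The 10 min arrays lay below every control, and the 24 h arrays lay between control 2 and the other controls. The log2 difference was -0.66 at 10 min, 0.01 at 15 h and -0.37 at 24 h, each ± 0.13 (SE), and -0.79, -0.12 and -0.50, each ± 0.09, without control 2. The second probe, 1570102, differed by -0.86 at 10 min, 0.10 at 15 h and -0.41 at 24 h, each ± 0.15, and by -0.98, -0.03 and -0.53 without control 2. Its values ran from 6.37 to 7.18 in the controls, from 5.88 to 6.24 at 10 min and from 6.32 to 6.58 at 24 h, with a mean of 6.97 ± 0.04 (SD, n = 3) at 15 h, so both probes shared this order. With slide as a block, the 24 h differences of the 2 probes were -0.18 ± 0.15 and -0.25 ± 0.17, and without control 2 they were -0.51 ± 0.14 and -0.59 ± 0.17.

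Phgdh, the first enzyme of serine synthesis, moved the other way at the late times. Probe 1500280 read 7.82, 7.61, 7.64, 7.81 and 7.79 in the controls, and 7.91, 8.01 and 8.11 at 10 min. It read 8.04, 7.87 and 8.02 at 5 h and 7.54, 7.63 and 7.67 at 8 h. At 15 h it read 8.34, 8.50 and 8.55, and at 24 h 8.00, 8.31 and 8.61. The 10 min, 5 h, 15 h and 24 h arrays all lay above every control, and the 8 h arrays overlapped them. The log2 difference was 0.28 at 10 min, 0.24 at 5 h, -0.12 at 8 h, 0.73 at 15 h and 0.57 at 24 h, each ± 0.11 (SE), or 1.66-fold higher at 15 h. Here control 2 was no outlier, and without it the differences were 0.25, 0.21, -0.15, 0.70 and 0.54. With slide as a block they were 0.84 ± 0.13 at 15 h and 0.68 ± 0.13 at 24 h.

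**Figure D2:**
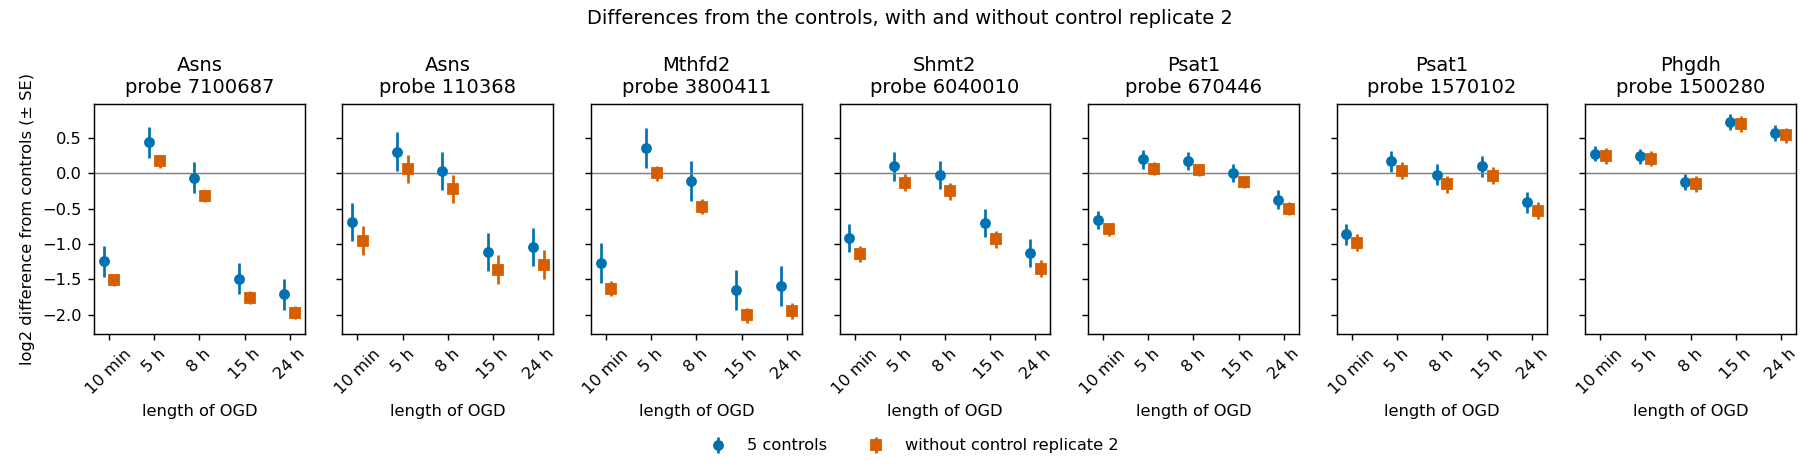
Log2 difference from the controls (vertical axis, bars ± SE of the limma fit) for 7 probes at each length of OGD (horizontal axes), with all 5 controls (circles) and without control replicate 2 (squares). Without that array the differences of Asns, Mthfd2 and Shmt2 are shifted downward at every time (-1.76, -2.01 and -0.93 at 15 h, from -1.49, -1.65 and -0.70), while that of Phgdh at 15 h is 0.70 in place of 0.73.

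Markers of several cell types passed the test against the controls at 10 min, 15 h and 24 h, and none did at 5 h or 8 h. Of 16 astrocyte markers listed, 15 have a probe and 13 were detected, with Slc1a2 and S100b not detected. At an adjusted p under 0.05 in limma, 12 of the 13 were higher than in the controls at 15 h, 10 at 24 h and 7 at 10 min, none was lower, and none passed the test at 5 h or 8 h. Of all probes, 18.7% were called higher at 15 h, 14.7% at 24 h and 11.0% at 10 min. The shares of all probes called lower were 19.9%, 14.4% and 9.39%, and the marker counts below stand beside the same shares. Their summed deposited intensity was 20905.0 to 29657.2 in the controls, 36079.9 to 40003.7 at 10 min, 22167.3 to 24030.6 at 5 h, 22931.2 to 27917.4 at 8 h, 33738.9 to 40558.3 at 15 h and 32873.4 to 37549.8 at 24 h. Of 12 neuronal markers, 11 have a probe and 9 were detected, with Snap25 and Nefl not detected under the names used here. Among these, 3 were lower at 10 min, 8 at 15 h and 4 at 24 h. Their summed intensity was 15685.2 to 20975.5 in the controls, 15212.0 to 19177.2 at 10 min, 18790.3 to 22593.7 at 5 h, 15687.5 to 16379.2 at 8 h, 9052.7 to 11545.7 at 15 h and 11355.8 to 13121.7 at 24 h. Control 2 had the lowest neuronal sum of the controls, 15685.2, and an astrocyte sum of 29609.0. Of 6 progenitor markers with a probe, 5 were detected, of which 2 were higher at 10 min, 4 at 15 h and 2 at 24 h. Their sum was 1891.1 to 2513.1 in the controls, 3301.7 to 3655.4 at 10 min, 3321.5 to 3757.3 at 15 h and 3173.5 to 3506.8 at 24 h. Of 7 fibroblast and vascular markers, 3 were detected, of which 2 were higher and 1 lower at each of these times, with sums of 1485.2 to 1712.6 in the controls, 2514.7 to 3261.2 at 10 min, 1764.1 to 1829.4 at 15 h and 2298.8 to 2644.3 at 24 h. Of the 8 microglial markers with a probe, 3 were detected, of which 1 was higher at 10 min and 2 at 15 h and at 24 h, with sums of 185.4 to 223.3 in the controls and up to 248.3 at 10 min. Those 3, Trem2, C1qa and C1qb, were detected on only 4, 4 and 6 of the 20 arrays, so their differences lie near background. Of the 8 oligodendrocyte markers with a probe, 5 were detected, none higher at any time and 1, 2 and 1 lower at 10 min, 15 h and 24 h. When control 2 was left out, the astrocyte markers called higher at 10 min, 15 h and 24 h numbered 8, 12 and 10. Neuronal markers called higher then numbered 1 at 10 min, and microglial ones 3 at 24 h. In the other lists the numbers called higher did not change. What part these cells have in the levels of Phgdh, Asns or the other enzymes was not tested.

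For 4 of the 9 genes with a probe, no array showed a signal above background at a detection p under 0.01. Psph, the last enzyme of serine synthesis, read 38.0 to 53.3 in deposited intensity over the 20 arrays. Shmt1, the cytosolic hydroxymethyltransferase, read 48.5 to 67.0. Aldh18a1, which opens proline synthesis, read 40.6 to 52.7, and the 2 probes of Cth read 34.9 to 51.8 and 31.0 to 46.3. No difference between groups can be read from these 5 probes. Pycr1, the last enzyme of proline synthesis, had no named probe and was not analysed.

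Counted over the 7 probes, with an adjusted p under 0.05 in limma's fit of all 10447 probes as the call, 5 were lower and none higher at 10 min. Of all probes, 20.4% were called there, 9.39% lower and 11.0% higher. At 15 h, 4 were lower and 1, Phgdh, higher, against 38.6% of all probes called, 19.9% lower and 18.7% higher. At 24 h, 6 were lower and 1, Phgdh, higher, against 29.1% called, 14.4% lower and 14.7% higher. None was called at 5 h (2.83% of all probes), where 1 of the 7 had an unadjusted p under 0.05 in limma against 21.8% of all probes. None was called at 8 h either, where no probe of any gene was (0.0%), and 0 of the 7 had an unadjusted p under 0.05 against 6.39% of all probes. These counts describe genes chosen from the same contrasts, and nothing is read from them.
Without control 2, 6, 0, 0, 5 and 7 of the 7 probes were called at 10 min, 5 h, 8 h, 15 h and 24 h, against 33.8%, 2.07%, 0.0%, 45.4% and 39.0% of all probes. The groups did not overlap the controls for 4 probes at 10 min (17.3% of all probes), 1 at 5 h (10.4%), 0 at 8 h (2.9%), 4 at 15 h (32.2%) and 4 at 24 h (26.3%). Without control 2 this held for 7 at 10 min (37.4%), 1 at 5 h (14.3%), 2 at 8 h (6.46%), 5 at 15 h (44.9%) and 7 at 24 h (43.4%).

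Successive times were compared directly, in the same fit over all probes. Earlier results of the same arrays were known here too, so these p-values describe genes already chosen and are no independent test. From 8 h to 15 h, Asns, Mthfd2 and Shmt2 fell and Phgdh rose, while Psat1 passed the test with neither probe. Of the 7 probes, 4 were lower and 1 higher, against 32.9% of all probes called, 16.9% lower and 16.0% higher. The arrays of the 2 times did not overlap for 6 of the 7 probes, as for 48.1% of all probes. Asns probe 7100687 fell by 1.43 ± 0.24 on the log2 scale (SE, limma adjusted p = 0.000218), with all 3 arrays at 15 h below all 3 at 8 h. Mthfd2 fell by 1.54 ± 0.32 (limma adjusted p = 0.00106) and Shmt2 by 0.68 ± 0.23 (limma adjusted p = 0.0273), again without overlap. The dim Asns probe was at least 1.82-fold lower at 15 h, a bound that was not itself tested. Its measured difference, which rests on 15 h readings not well above background, was -1.14 ± 0.30 (limma adjusted p = 0.0062). With slide as a block that difference was -0.29 ± 0.38 (limma adjusted p = 0.69), and -1.0 ± 0.26 (0.0151) when control 2 was also left out. Phgdh rose by 0.85 ± 0.12 (limma adjusted p = 5.6e-05), with all 15 h arrays above all 8 h arrays. Psat1 differed by -0.17 ± 0.15 and 0.12 ± 0.17 in its probes (limma adjusted p = 0.389 and 0.618). The 8 h and 15 h arrays lay on different slides, joined only through their controls. With slide as a block, Phgdh alone of the 7 probes passed, at 1.03 ± 0.19 (limma adjusted p = 0.0098), while Asns differed by -0.74 ± 0.33 (0.177), Mthfd2 by -0.78 ± 0.44 (0.295) and Shmt2 by -0.16 ± 0.30 (0.793). In a further fit, chosen after control 2 was seen to be low in these genes, the slide block without that array left 5 of the 7 probes past the test, Asns at -1.39 ± 0.19 (limma adjusted p = 0.000173), Mthfd2 at -1.70 ± 0.21 (0.000113), Shmt2 at -0.70 ± 0.22 (0.0398) and Phgdh at 1.01 ± 0.22 (0.00475). Shmt2 also lost the call without array 3 at 8 h (adjusted p = 0.0934) and without arrays 1 or 2 at 15 h (0.107 and 0.0524). For the fits with slide as a block, the share of all probes called is not given here, so nothing is read from their counts.

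From 5 h to 8 h, on 1 slide, no probe of the 7 passed in limma (2.31% of all probes did), and 1 had an unadjusted p under 0.05 against 20.8% of all probes. Asns differed by -0.49 ± 0.24 (limma adjusted p = 0.253), Mthfd2 by -0.47 ± 0.32 (0.418) and Phgdh by -0.37 ± 0.12 (0.104), and for these 3 the 8 h arrays lay wholly below the 5 h arrays, as was so between the times for 26.1% of all probes. When control 2 was left out, which narrows the shared error, Asns (limma adjusted p = 0.00926) and Mthfd2 (0.027) passed with the same differences. The share of all probes that passed was then 6.86%, against 2.31% with that array.
From 15 h to 24 h, also on 1 slide, again no probe passed in limma (1.04% of all probes did), and 2 had an unadjusted p under 0.05 against 15.0% of all probes. The Psat1 probes differed by -0.38 ± 0.15 (limma adjusted p = 0.206) and -0.50 ± 0.17 (0.142) and Shmt2 by -0.42 ± 0.23 (0.40), with 24 h arrays wholly below 15 h arrays in all 3 (29.4% of all probes did not overlap). Without control 2 both Psat1 probes passed (limma adjusted p = 0.0366 and 0.04), as did 3.53% of all probes, against 1.04% with that array. Asns differed by -0.22 ± 0.24, Mthfd2 by 0.06 ± 0.32 and Phgdh by -0.16 ± 0.12, with overlapping arrays.

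Over the 20 arrays, the probe most like Asns 7100687 among the other 10446 was that of Aars, alanyl-tRNA synthetase, at r = 0.989. Mthfd2 had rank 3, at r = 0.979. The other named probes closest to it were those of Epha8 (0.986), Fosb (0.979), Lss (0.977), Cox6a2 (0.975), Atf4 (0.974), Gp1bb (0.974) and Eif2b4 (0.974). Among the members, Shmt2 ranked 74 (0.946), the dim Asns probe 270 (0.900), the Psat1 probes 1581 (0.703) and 2521 (0.564), and Phgdh 8577 (-0.651). These correlations describe arrays that share groups, slides and normalization. Without control 2 they were 0.989 for Aars, 0.982 for Mthfd2 and -0.717 for Phgdh. Aars differed from the controls by -0.82, 0.25, -0.04, -0.95 and -0.95 (log2) at the 5 times, and Atf4 by -1.13, 0.68, 0.18, -1.10 and -1.51. Fosb differed by -2.81, 0.89, -0.33, -2.66 and -2.9, and Epha8 by -1.4, 0.54, 0.04, -1.41 and -1.7. The other named probes listed as closest were also lower at 10 min, 15 h and 24 h.

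**Figure D3:**
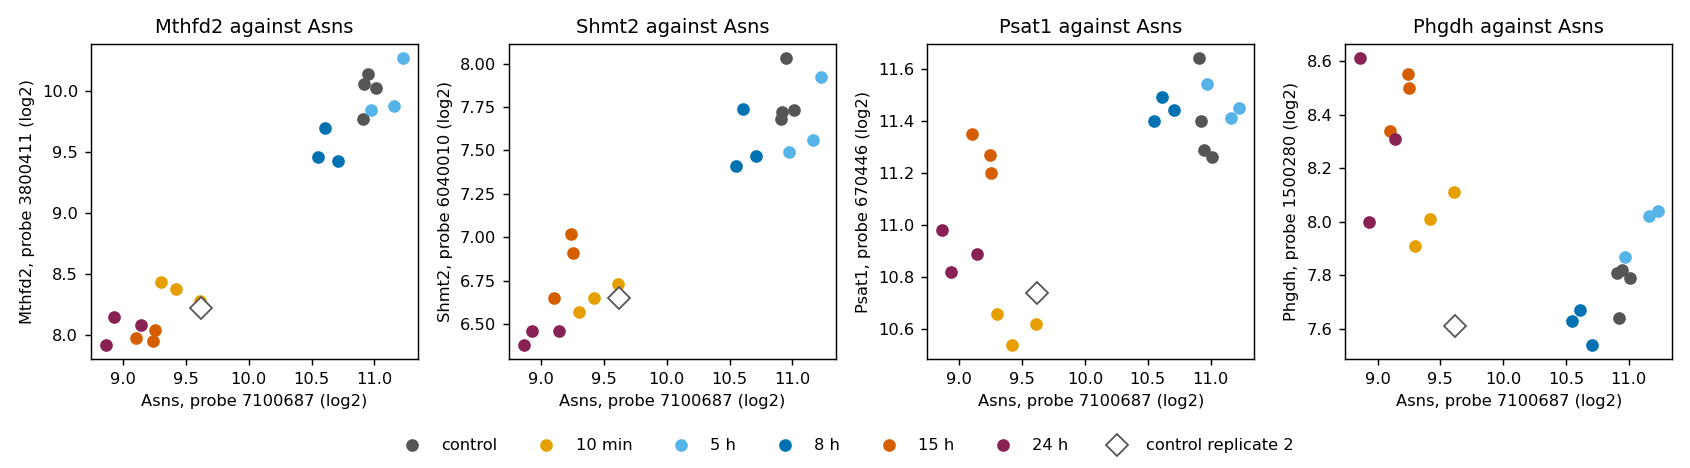
Normalized log2 intensity of Mthfd2, Shmt2, Psat1 and Phgdh (vertical axes) against Asns probe 7100687 (horizontal axes), 1 point per array, coloured by group, with control replicate 2 as an open diamond. Mthfd2 and Shmt2 fall into the same high and low sets as Asns (r = 0.979 and 0.946), Psat1 at 15 h sits at its control level, and Phgdh is highest where Asns is lowest (r = -0.651).

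Beyond the 10 enzymes, 45 genes of connected steps (glycine cleavage, folate enzymes, transsulfuration, glutamate, proline and urea-cycle enzymes and amino acid carriers) were listed, of which 24 had a tested probe. Against the controls, 4 were higher and 3 lower at 10 min, 1 higher at 5 h, none at 8 h, 10 higher and 4 lower at 15 h, and 7 higher and 2 lower at 24 h, at an adjusted p under 0.05. These are 29.2%, 4.17%, 0.0%, 58.3% and 37.5% of the 24, against 20.4%, 2.83%, 0.0%, 38.6% and 29.1% of all probes. The median log2 difference was 0.08, 0.01, 0.01, 0.19 and 0.12 at the 5 times, against -0.006, -0.005, 0.002, -0.022 and -0.018 over all probes. Without control 2 the counts were 6 and 4, 1 and 0, 0 and 0, 12 and 4, and 8 and 3. In that fit 33.8%, 2.07%, 0.0%, 45.4% and 39.0% of all probes were called in either direction. From 8 h to 15 h, 10 were higher and 2 lower, against 16.0% and 16.9% of all probes. None passed between 5 h and 8 h (2.31% of all probes did) or between 15 h and 24 h (1.04%).
Mthfd1l, the mitochondrial enzyme that releases formate downstream of Mthfd2, was lower at 10 min (-0.95 ± 0.15), 15 h (-0.65) and 24 h (-1.05 ± 0.15) and higher at 5 h (0.58 ± 0.15, limma adjusted p = 0.0473). Slc1a4, a carrier of neutral amino acids including serine, was lower at 10 min (-0.58), 15 h (-0.84 ± 0.16) and 24 h (-0.87 ± 0.16). It fell by 0.87 ± 0.18 from 8 h to 15 h (limma adjusted p = 0.00117). Both genes were therefore low in the groups in which Asns, Mthfd2 and Shmt2 were low.
Gldc, the decarboxylase of the glycine cleavage system, was higher at 10 min (0.35), 15 h (1.03 ± 0.11) and 24 h (0.85 ± 0.11), and rose by 1.01 ± 0.12 from 8 h to 15 h (limma adjusted p = 1.2e-05). Ass1, argininosuccinate synthase, rose by 1.23 ± 0.20 (limma adjusted p = 0.000171) and Prodh, which degrades proline, by 0.69 ± 0.14 (limma adjusted p = 0.000817) over the same step. With slide as a block, added after the results were seen, 3 of the 24 connected genes were higher and none lower from 8 h to 15 h, with Gldc at 0.90 ± 0.19 (limma adjusted p = 0.0155), Prodh at 0.74 ± 0.21 (0.0478), Ass1 at 0.70 ± 0.29 (0.149) and Slc1a4 at -0.37 ± 0.25 (0.389). With the block and without control 2, 6 were higher and 2 lower, among them Ass1 at 1.14 ± 0.25 (limma adjusted p = 0.00528) and Slc1a4 at -0.74 ± 0.22 (0.0281). The shares of all probes called in these blocked fits are not given here, so nothing is read from their counts. Cbs, the first enzyme of transsulfuration, was higher at 15 h (0.57 ± 0.11) and 24 h (0.40). Glul, glutamine synthetase, which is also in the astrocyte list, was higher at 10 min (0.85 ± 0.18), 15 h (0.64) and 24 h (0.61), and so was Glud1, glutamate dehydrogenase (0.39 ± 0.10, 0.51 and 0.58 ± 0.10). Aldh1l2, a mitochondrial folate dehydrogenase, was lower at 10 min (-0.53 ± 0.13), and by -0.32 ± 0.20 with slide as a block, past the test in the first of these fits only. With that block, the 10 min differences of Glul (0.80 ± 0.28), Glud1 (0.50 ± 0.16) and Gldc (0.46 ± 0.17) did not pass either. Nor did those of Mthfd1l at 5 h (0.47 ± 0.19) and 15 h (-0.51 ± 0.19), or of Cbs at 24 h (0.31 ± 0.14). At 10 min, 15 h and 24 h the astrocyte marker sum also lay above that of every control. What part cell composition has in the higher levels was not tested.

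**Figure D4:**
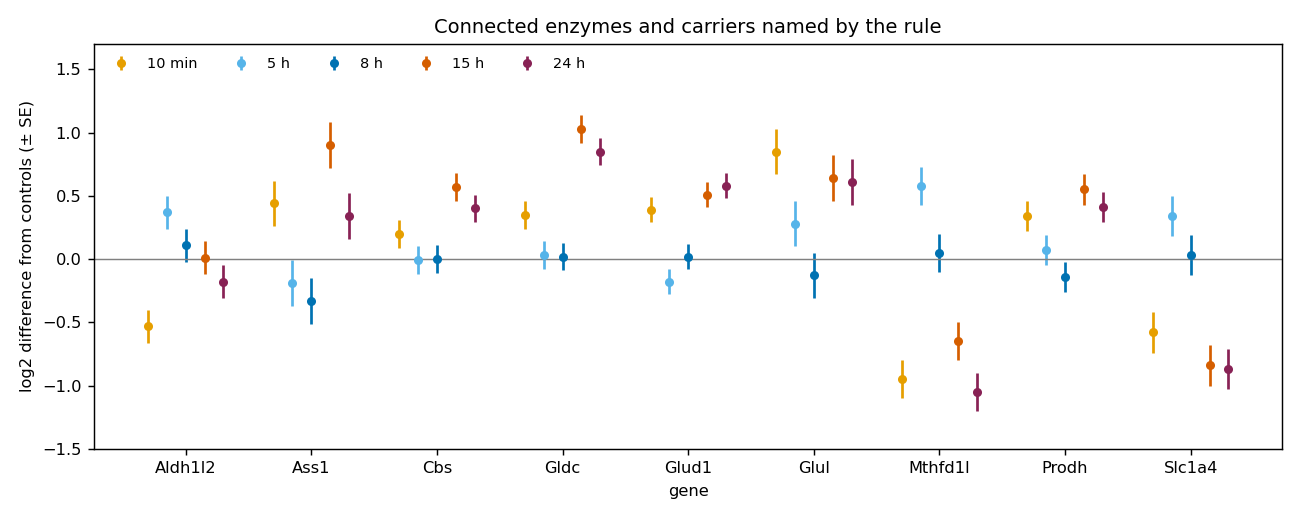
Log2 difference from the 5 controls (vertical axis, bars ± SE of the limma fit) for 9 enzymes and carriers connected to the 10 members (horizontal axis), coloured by length of OGD. Mthfd1l and Slc1a4 lie below 0 at 10 min, 15 h and 24 h, and Gldc, Glul, Glud1, Cbs, Prodh and Ass1 lie above 0 at those times. Of these, Cbs, Prodh and Ass1 at 10 min did not pass the test (limma adjusted p = 0.218, 0.0595 and 0.0875). Nor did Ass1 at 24 h (0.166).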

How the data were processed

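Biotin-labelled cRNA of 20 neuron samples was hybridised to single-colour Illumina MouseRef-8 v1.1 arrays. The deposited BeadStudio 3.1.7 profile gives, per the file headers, the average bead intensity of each probe and array without normalization, with the bead standard deviation as intensity, the number of beads, and a detection score equal to 1 minus the detection p. The authors' normalized tables hold a ratio, the intensity divided by array and control medians, as their values show; they serve as an alternative here, joined by equal values for 24601 rows. Their control columns hold values of other control arrays than labelled, so arrays were named by the profile. Of 24620 probes, 20614 were named.

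After 7 bacterial control probes were left out, intensities were background-corrected and quantile-normalized (neqc, offset 16, limma 3.58.1, R 4.3.3). Probes with detection p under 0.01 on at least 3 of 20 arrays were kept, 10447 in all. A model with 6 groups was fitted to all arrays and tested with limma (two-sided), with Benjamini-Hochberg adjustment over all probes of a comparison at 0.05. The script was tested on simulated data. The median SE over beads was 3.72% to 5.17% of the intensity for the 7 probes, and precision is limited by how many arrays there are.

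The members, the connected genes and the markers were chosen with earlier results of these data known. Named connected genes are up to 4 per comparison with the smallest adjusted p; genes like Asns are the 8 named probes with the highest Pearson correlation. Connected genes and markers are counted by the probe with the highest mean. Also tried were a fixed or random block for slide, arrays of the same slide only, a replicate block, the authors' values, 75th percentile scaling, 2 other filters, and leaving out arrays. Slide as a block without control 2, and slide as a block for the connected genes, were added after seeing the data. Promoters came from RefSeq tables of GRCm38.p6.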

Additional observations from a re-analysis of the deposited data

Results flagged for a closer look

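Control replicate 2 lay far below the other 4 controls in 4 of the 13 member probes, by a gap test that chance passes in about 1 in 20 groups. For Asns probe 7100687 it read 9.62 (log2) against 10.91 to 11.01 in the others. For Mthfd2 it read 8.22 against 9.77 to 10.14. For Shmt2 probe 6040010 it read 6.65 against 7.68 to 8.03, and for the rarely detected Shmt2 probe 1850180 it read 4.66 against 5.09 to 5.26. In these genes it lay near the 10 min arrays, which read 9.30 to 9.61 for Asns, 8.28 to 8.44 for Mthfd2 and 6.57 to 6.73 for Shmt2 probe 6040010. It shared its slide with control 3 and the 15 h and 24 h arrays. Late arrays also lay near it for Mthfd2 (7.92 to 8.15 at 24 h) and Shmt2 probe 6040010 (6.65 to 7.02 at 15 h). For Asns probe 7100687 they lay lower, at 9.10 to 9.25 at 15 h.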

How the results depend on the processing

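The count of called probes among the 7 was 5, 0, 0, 5 and 7 at 10 min, 5 h, 8 h, 15 h and 24 h against the controls, and 0, 5 and 0 between 5 h and 8 h, 8 h and 15 h, and 15 h and 24 h. No called value turned its direction under any alternative run. With slide as a fixed block the count was 4 at 24 h and 1 between 8 h and 15 h, and with slide as a random block it was 3 between 8 h and 15 h. With arrays of the same slide only it was 2 at 15 h and 2 at 24 h. With the authors' normalized values it was 1 at 5 h and 1 between 5 h and 8 h, Phgdh both times. Slide as a block without control replicate 2 gave 2 between 5 h and 8 h and 2 between 15 h and 24 h, as did leaving out that array alone, and 5 and 7 at 15 h and 24 h. With the replicate block the count at 24 h was 4; same-numbered arrays deviated from their group means with a median correlation of -0.002 over 45 pairs, against 0.012 for 120 pairs of other numbers, so the numbers were not taken to pair arrays. Leaving out single arrays gave 5 to 6, 0 to 0, 0 to 0, 4 to 5 and 5 to 7 against the controls, and 0 to 2, 4 to 5 and 0 to 2 between times. Psat1 at 24 h was the least stable, since both probes lost the call when single arrays of the controls or of 24 h were left out, and probe 1570102 also without single arrays of 10 min, 5 h, 8 h or 15 h. Of the 24 connected genes, slide as a block left 3 called at 10 min (from 7), 0 at 5 h (from 1) and 3 between 8 h and 15 h (from 12). The block without control replicate 2 left 0 at 5 h, 1 between 5 h and 8 h and 2 between 15 h and 24 h, as leaving out that array alone gave 1 and 2 for the latter comparisons (from 0 each). Without that array alone the counts at the 5 times against the controls were 10, 1, 0, 16 and 11, and 13 between 8 h and 15 h. Of all probes, that fit called 33.8%, 2.07%, 0.0%, 45.4% and 39.0%, and 37.3% between 8 h and 15 h. The 4 genes with probes at background, and the second Asns probe at 15 h and 24 h, are limited by signal. Apart from the fit without control replicate 2, shares of all probes called are not given for the alternative fits. Nothing is therefore read from their counts. The causes of these shifts were not tested.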
